A study of Homo sapiens with 18 samples.

Results

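The ZFP36 family and the immediate early transcription factor genes were followed in HCT116 cells, a human colorectal carcinoma line of epithelial type, between day 3 and day 5 after seeding. The 10 genes were chosen by symbol from a whole transcriptome RNAseq table of 38055 genes, and all 10 were present: ZFP36, ZFP36L1, ZFP36L2, FOS, FOSL1, JUN, JUNB, EGR1, ATF3 and IER2. Both groups were wild-type (WT) HCT116 cells grown in McCoy's 5A medium with fetal bovine serum. Those of day 3 were at 50% confluency and those of day 5 at 250%, with 3 libraries per day that the labels call biological replicates. Day and density changed together, so time in culture and crowding cannot be told apart. For cells seeded to make extracts, the methods describe new medium each day from day 2 on. The hours between the last change and harvest of the RNA are not given in the sources used here, and the cells are 1 tumour line without matched normal epithelium.

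The ZFP36 proteins bind AU-rich elements in the 3′ untranslated regions (3′UTRs) of short-lived mRNAs through tandem CCCH zinc fingers, and recruit the CCR4-NOT complex, which shortens the poly(A) tail and so starts decay of the mRNA. Immediate early genes are transcribed within minutes of a growth factor, serum or stress signal, from factors that are already in the cell, such as SRF and the ELK proteins phosphorylated by MAP kinases. FOS and JUN family proteins pair through leucine zippers to form AP-1, which acts in proliferation and migration of epithelial tumour cells. Many immediate early mRNAs carry AU-rich elements and are themselves short-lived, and ZFP36 is an immediate early gene too.

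The sequence that ZFP36 proteins prefer, the nonamer TTATTTATT in DNA letters, was searched on the sense strand in the 3′UTR of the canonical transcript of each gene. It was present exactly 1 time in each of ZFP36, ZFP36L1, ZFP36L2 and FOS, and these 4 sites are printed here because they set the decay factors and FOS apart in sequence from the other 6 genes, which held 0. The letters are those of the DNA strand, 5′ to 3′, with the nonamer in capitals, from GENCODE 44 transcripts on GRCh38. The windows lie in the 3′UTRs, at chr19:39409200-39409229 on the plus strand for ZFP36, chr14:68788072-68788101 on the minus strand for ZFP36L1, chr2:43223443-43223472 on the minus strand for ZFP36L2 and chr14:75282064-75282093 on the plus strand for FOS.
ZFP36: acgactTTATTTATTctaatatgattttat
ZFP36L1: gttggaTTATTTATTttagaaattcccccc
ZFP36L2: tttaacTTATTTATTatcttgtgaaaagta
FOS: tttaatTTATTTATTaagatggattctcag

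The shorter pentamer ATTTA, which the nonamer contains, occurred 8 times in the 3′UTR of ZFP36L1 and 5 times each in those of ZFP36, ZFP36L2 and FOS. It occurred 3 times each in JUN and ATF3, 2 times in JUNB, 1 time each in FOSL1 and EGR1, and 0 times in IER2. Of the 13094 tested genes with an annotated 3′UTR, 7.09% held 1 nonamer and 2.18% held 2 or more. Genes with more nonamers had longer 3′UTRs, with a median length of 1164 bases for those with none, 2841 for those with 1 and 4033 for those with 2 or more. A match in these letters is a description and not a measured binding site.

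The 300 bases around the annotated start sites, 250 before and 50 after, were available from RefSeq (GRCh38.p14) for 8 of the 10 genes. The CArG box, the core of the serum response element that SRF binds, was found by its name pattern 2 times in the EGR1 window. No window of the other 7 genes held a match, but a box more than 250 bases before a start site would not be found. It was present in 1.29% of 35116 such windows over all genes. The cyclic AMP response element TGACGTCA occurred 1 time in 1 of the windows of ZFP36L1, against 1.85% of all windows, and the AP-1 site TGANTCA occurred in none of the members' windows, against 7.71% of all (both strands were searched). Only exact matches were counted, so elements that differ from these letters, or lie outside the windows, were not seen. The EGR1 window, chr5:138465229-138465528 on the plus strand, is shown because it is the only member window in which this pattern was found. The boxes are in capitals and begin 105 and 83 bases before the start site.
EGR1: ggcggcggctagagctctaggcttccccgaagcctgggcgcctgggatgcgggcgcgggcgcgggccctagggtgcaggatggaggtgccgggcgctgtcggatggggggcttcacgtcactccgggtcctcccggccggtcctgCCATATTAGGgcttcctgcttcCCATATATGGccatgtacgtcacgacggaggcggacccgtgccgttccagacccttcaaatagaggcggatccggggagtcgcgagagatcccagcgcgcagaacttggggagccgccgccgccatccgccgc

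The deposited values are reads per gene divided by a scaling factor for each library, and they were compared between days with limma on log2(value + 1), with Benjamini-Hochberg adjustment over the 20129 genes tested and a threshold of 0.05. The libraries held 27470978 to 56689369 reads on genes, and the 10 genes had between 261 reads (JUN, day 3) and 11602 reads (ZFP36L1, day 5) per library, so all 10 passed the filter of a minimum value of 10 in 3 or more libraries. EPCAM, KRT8, KRT18, KRT19 and CDH1 were detected and VIL1 was under 10 in every library. The summed epithelial markers were 36902 to 54942 on day 3 and 100051 to 101108 on day 5, with 4 of 5 tested higher, while the leukocyte markers summed to at most 21.7, with PTPRC, CD3E, CD68 and CD14 under 10 in every library. The fibroblast markers summed to 523 to 596 on day 3 and 1112 to 1193 on day 5, nearly all from COL1A1, and the endothelial markers to 15.6 to 27.2 and 39.3 to 68.3, with DCN and CDH5 under 10 in every library. COL1A1, LYZ, VWF and KDR were called higher on day 5, as 1 of 3 fibroblast, 1 of 1 leukocyte and 2 of 2 endothelial markers tested. The part of these shifts in the results was not tested.

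By this test 8 of the 10 genes were called, and all 8 were higher on day 5. The background was large: 56.9% of all genes tested were called, 29.3% higher and 27.6% lower. The median log2 fold change was 1.09 over the 10 genes, 0.01 over all genes tested and 0.12 over the 13094 of them with an annotated 3′UTR. Of those 13094 genes, 37.7% were called higher and 28.0% lower. The libraries of both days did not overlap for 9 of the 10 genes, against 65.0% of all genes tested. These are bulk samples, so more cells that express a gene and more RNA per cell cannot be told apart.

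**Figure D1:**
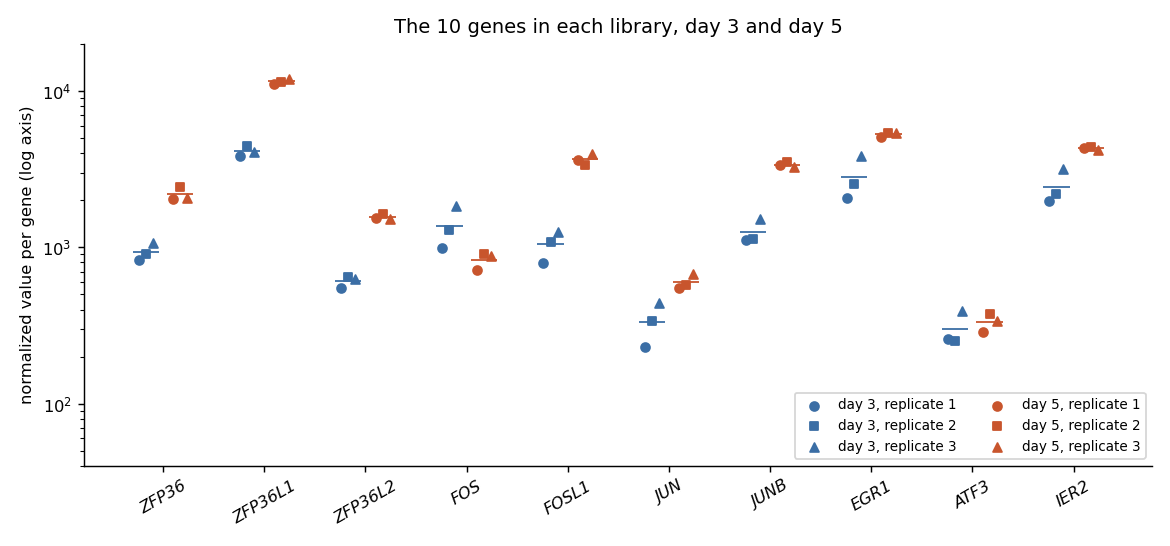
Normalized value of each of the 10 genes (log axis) in the 3 day 3 libraries (blue) and the 3 day 5 libraries (orange), with the marker shape for the replicate and a line at each day's mean. Day 5 lies above day 3 for 8 genes, FOS lies lower on day 5 and the days of ATF3 overlap.

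All 3 ZFP36 genes rose from day 3 to day 5. ZFP36 (tristetraprolin, the founding member of the family; chr19:39406847-39409412, plus strand, 2 exons) had normalized values of 831, 907 and 1060 on day 3 and 2051, 2427 and 2064 on day 5. Every day 5 library was above every day 3 library. The log2 fold change was 1.23 ± 0.13 (SE, n = 3 per day; adjusted p = 0.000551 by limma), a 2.34-fold rise.

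ZFP36L1, a paralog with roles in cell cycle control and differentiation (chr14:68787660-68796253, minus strand, 2 exons), had values of 3824, 4443 and 4057 on day 3 and 11167, 11480 and 12014 on day 5. Again the days did not overlap. It rose by 1.49 ± 0.09 on the log2 scale (SE, n = 3 per day; adjusted p = 0.000185 by limma), or 2.82-fold. A further annotated gene overlaps ZFP36L1 on its strand, so reads in the overlap could be split.

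ZFP36L2, the third paralog (chr2:43222402-43226606, minus strand, 2 exons), had values of 546, 642 and 629 on day 3 and 1535, 1636 and 1521 on day 5. No library of day 3 reached the values of day 5. The rise was 1.37 ± 0.09 on the log2 scale (SE, n = 3 per day; adjusted p = 0.000225 by limma), or 2.58-fold. The 95% intervals of the 3 log2 fold changes overlapped, running from 0.92 to 1.53 for ZFP36, 1.28 to 1.71 for ZFP36L1 and 1.14 to 1.60 for ZFP36L2. Differences between these fold changes were not tested.

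To compare levels between the genes, reads were divided by the length of all annotated exons and by the library total, giving RPKM, a level per length. On this scale the 3 ZFP36 genes together went from 35.4 ± 2.01 on day 3 to 96.6 ± 4.14 RPKM on day 5 (SD, n = 3 each), 2.73 times as much. ZFP36L1 held 50.0% ± 2.65 on day 3 and 53.96% ± 2.29 on day 5, ZFP36 held 37.1% ± 2.80 and 33.3% ± 2.13, and ZFP36L2 held 12.9% ± 0.23 and 12.8% ± 0.32 (SD, n = 3 each). The shares of all 3 overlapped between the days. The ratio of ZFP36L1 to ZFP36L2 did not, at 3.9998, 3.95 and 3.68 in the day 3 libraries and 4.16, 4.01 and 4.51 in those of day 5. With the length of the canonical transcript, a choice made after seeing the data, the shares of ZFP36L1 were 66.1% and 69.6%, so the levels of these genes relative to each other depend on the length used.

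The FOS family behaved otherwise: FOSL1 had the largest fold change of the 10 genes while FOS had lower values on day 5. FOSL1 encodes FRA-1, an AP-1 subunit known for its part in invasion of epithelial tumours (chr11:65892049-65900573, minus strand, 4 exons). Its values were 798, 1086 and 1256 on day 3 and 3617, 3380 and 3947 on day 5, with no overlap. This was a rise of 1.82 ± 0.18 on the log2 scale (SE, n = 3 per day; adjusted p = 0.000495 by limma), or 3.54-fold.

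FOS, the prototype immediate early gene and the partner of JUN in AP-1 (chr14:75278826-75282230, plus strand, 4 exons), had values of 989, 1285 and 1851 on day 3 and 720, 900 and 885 on day 5. All 3 day 5 libraries were below all 3 day 3 libraries, and the day 3 libraries were far apart. The log2 fold change of −0.68 ± 0.24 (SE, n = 3 per day; 95% interval −1.26 to −0.09) did not pass limma's test, with an adjusted p of 0.0523. It passed under 6 of 13 alternatives, with adjusted p from 0.000466 by edgeR on the recovered reads to 0.136 by limma without the day 5 replicate 1 library, and the log2 fold change was below 0 under all 13.

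FOSB and FOSL2, the other members of the family, were taken from the list of further immediate early genes. FOSB had 437, 803 and 1307 on day 3 and 351, 487 and 611 on day 5. The days overlapped, and the log2 fold change of −0.71 ± 0.42 was not called (SE, n = 3 per day; adjusted p = 0.199 by limma). FOSL2, which encodes FRA-2, had 673, 865 and 948 on day 3 and 5152, 5006 and 5557 on day 5. Its log2 fold change of 2.67 ± 0.14 was called (SE, n = 3 per day; adjusted p = 0.000165 by limma).

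Within the summed per-length level of the family, FOS held 34.2% ± 1.79 on day 3 and 8.71% ± 1.09 on day 5 (SD, n = 3 each). FOSB went from 11.6% ± 2.95 to 2.87% ± 0.63, FOSL1 from 44.7% ± 3.03 to 64.1% ± 1.45 and FOSL2 from 9.43% ± 1.11 to 24.3% ± 0.40. None of these 4 shares overlapped between the days. Such a share is the same whatever scaling is put between the libraries. The ratio of FOSL1 to FOS per length was 1.36, 1.43 and 1.15 in the day 3 libraries and 8.48, 6.34 and 7.53 in the day 5 libraries. FOSL2 was below FOS in every day 3 library, at 0.30, 0.30 and 0.23 of its level, and above it in every day 5 library, at 3.18, 2.47 and 2.79 times. With canonical transcript lengths FOS held 40.3% and 11.5%, and FOSL1 was at 1.00, 1.04 and 0.84 times its level on day 3 and at 6.21, 4.64 and 5.51 times on day 5. The family's sum rose from 34.5 ± 7.45 to 87.8 ± 4.95 RPKM (SD, n = 3 each).

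**Figure D2:**
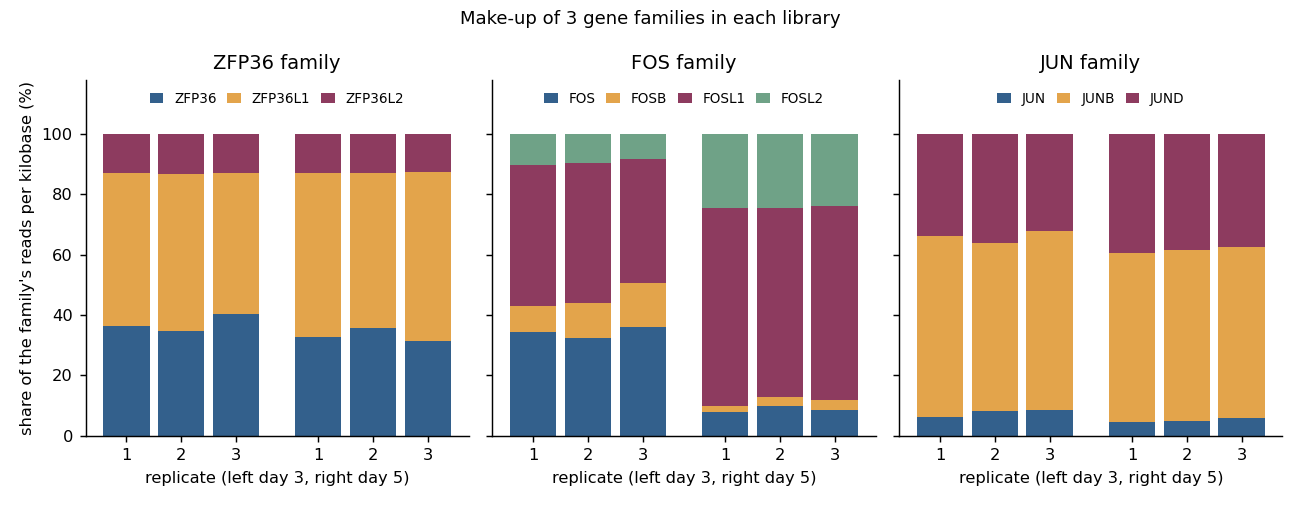
Share (%) of each gene in the summed reads per kilobase of its family, for the ZFP36, FOS and JUN families, with 1 bar per library (day 3 on the left and day 5 on the right of each panel). FOS and FOSB shrink from 34.2% and 11.6% to 8.71% and 2.87% of their family while the shares within the ZFP36 family overlap between the days.

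Both JUN family members among the 10 rose. JUN, the main partner of FOS (chr1:58776845-58784048, minus strand, 1 exon), had values of 229, 337 and 439 on day 3 and 553, 577 and 671 on day 5. The days did not overlap. JUN rose by 0.88 ± 0.24 on the log2 scale (SE, n = 3 per day; adjusted p = 0.0222 by limma), or 1.84-fold. Its call was lost under 3 of 13 alternatives of the limma fit: with no filter on low values (adjusted p = 0.0663), without day 3 replicate 2 (adjusted p = 0.0502) and without day 5 replicate 3 (adjusted p = 0.0651).

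JUNB, a partner that often opposes JUN (chr19:12791486-12793315, plus strand, 1 exon), had values of 1112, 1130 and 1524 on day 3 and 3368, 3500 and 3254 on day 5. The lowest day 5 library was above the highest of day 3. JUNB rose by 1.44 ± 0.14 on the log2 scale (SE, n = 3 per day; adjusted p = 0.000482 by limma), or 2.71-fold. HOOK2 lies over JUNB on the other strand, and the methods state that only reads of the gene's own strand were counted.

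JUND, the remaining member, rose as well, with a log2 fold change of 1.66 ± 0.12 (SE, n = 3 per day; adjusted p = 0.000235 by limma). Per length JUNB led the family on both days, with 58.2% ± 2.42 on day 3 and 56.5% ± 0.48 on day 5 (SD, n = 3 each), which overlapped. JUND held 34.0% ± 2.09 and 38.4% ± 0.94 and JUN 7.74% ± 1.31 and 5.09% ± 0.70, neither with overlap. The JUN family's sum rose from 32.6 ± 3.18 to 95.1 ± 4.48 RPKM (SD, n = 3 each), or 2.92 times.

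EGR1 and IER2 rose too. EGR1, a zinc finger transcription factor induced by serum through SRF (chr5:138465479-138469303, plus strand, 2 exons), is the gene of the promoter window above. It had values of 2057, 2560 and 3859 on day 3 and 5068, 5351 and 5417 on day 5. The days did not overlap, and the 3 day 5 libraries lay much closer together than those of day 3. The log2 fold change was 0.95 ± 0.23 (SE, n = 3 per day; adjusted p = 0.0136 by limma), or 1.93-fold.

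IER2, a nuclear protein gene of the immediate early class (chr19:13150411-13154911, plus strand, 2 exons), had values of 1977, 2207 and 3164 on day 3 and 4290, 4413 and 4217 on day 5. All 3 day 5 values were above those of day 3. The rise was 0.84 ± 0.18 on the log2 scale (SE, n = 3 per day; adjusted p = 0.00876 by limma), or 1.79-fold.

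ATF3, a stress-induced bZIP factor that can pair with JUN proteins (chr1:212565334-212620777, plus strand, 4 exons), was the member without a separation of the days. Its values were 258, 250 and 394 on day 3 and 285, 377 and 335 on day 5. The highest of all 6 was a day 3 library. The log2 fold change of 0.17 ± 0.21 was not called (SE, n = 3 per day; adjusted p = 0.521 by limma), and its 95% interval from −0.34 to 0.68 leaves room for a modest change in either direction.

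The order of the per-length levels changed between the days. On day 3 it ran EGR1, IER2, JUNB, ZFP36L1, FOSL1, ZFP36, FOS, ZFP36L2, JUN and ATF3, from a mean of 24.7 to 2.07 RPKM. The ranges of neighbours overlapped from EGR1 down to FOS, and JUN overlapped ATF3. FOS with ZFP36L2 and ZFP36L2 with JUN were apart. On day 5 FOSL1 (56.3), JUNB (53.8) and ZFP36L1 (52.1) were the highest and overlapped as neighbours. They were followed by EGR1 (49.0), IER2 (40.8), ZFP36 (32.2), ZFP36L2 (12.3), FOS (7.64), JUN (4.82) and ATF3 (2.42), each apart from the next. FOS had a mean of 11.9 on day 3, between ZFP36 (13.1) and ZFP36L2 (4.56), and was below all 3 ZFP36 genes on day 5.

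This order depends on the length used. With canonical transcript lengths ZFP36L1 had the highest mean level on both days, at 37.9 RPKM on day 3, where it overlapped IER2, and 111.6 on day 5, where it was apart from FOSL1 (62.4). FOS then had a mean of 17.95 on day 3, where its range lay above that of ZFP36L2, and of 11.6 on day 5, where it overlapped ZFP36L2 (12.3).

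The 10 genes also varied among the day 3 libraries. Day 3 replicate 3 was the highest day 3 library for 8 of them, all but ZFP36L1 and ZFP36L2, and day 3 replicate 1 was the lowest for 9, all but ATF3. Over all genes tested, replicate 3 was the highest for 49.7% and replicate 1 the lowest for 43.9%. Over genes with a mean value of at least 50 on either day these shares were 55.8% and 49.8%. The highest day 3 library was 1.92 times the lowest for JUN, 1.88 for EGR1, 1.87 for FOS, 1.60 for IER2 and 1.57 for both FOSL1 and ATF3. For ZFP36, ZFP36L1 and ZFP36L2 it was 1.28, 1.16 and 1.17 times, and for JUNB 1.37 times. In the deposited values these ratios were smaller for the 3 decay factor genes than for each of the other 7. The ratios and the order of the libraries depend on the scaling between libraries. Divided by length and library total, ZFP36L1 ran from 16.11 to 19.61 RPKM on day 3 and JUNB from 17.62 to 21.38. On that scale the ratio of ZFP36L1 was not smaller than that of JUNB.

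On day 5 the ratio of the highest to the lowest deposited value was between 1.05 for IER2 and 1.32 for ATF3. The standard deviation of log2(value + 1) had a median of 0.34 over the 10 genes on day 3 and 0.08 on day 5, where the median over all genes tested was 0.17 and 0.11. Over genes with a mean value of at least 50 on either day it was 0.134 and 0.082, so the median of the 10 genes was above it on day 3 and near it on day 5. ZFP36L1 (0.109) and ZFP36L2 (0.127) were below it on day 3. Each of the 10 had a smaller standard deviation on day 5. Of the 36 further immediate early genes, 30 were highest in day 3 replicate 3 among the day 3 libraries, 31 were lowest in replicate 1 and 28 were both, while NFKBIZ had its highest value in replicate 1. NR4A1, which encodes an orphan nuclear receptor and was named after its values were seen, had values of 416, 626 and 1236 on day 3 and 697, 697 and 716 on day 5. Day 3 replicate 3 was also the shallowest library, and replicate 2 the deepest. The part of depth and of scaling in this spread was not tested.

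Without day 3 replicate 3, the log2 fold changes by limma were −0.44 for FOS (adjusted p = 0.0750), 0.38 for ATF3 (adjusted p = 0.0661), 1.10 for JUN (adjusted p = 0.00723), 1.20 for EGR1 and 1.04 for IER2. Without it no call among the 10 changed. FOS was called when day 3 replicate 1 was left out instead (log2 fold change −0.89, adjusted p = 0.0171 by limma).

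**Figure D3:**
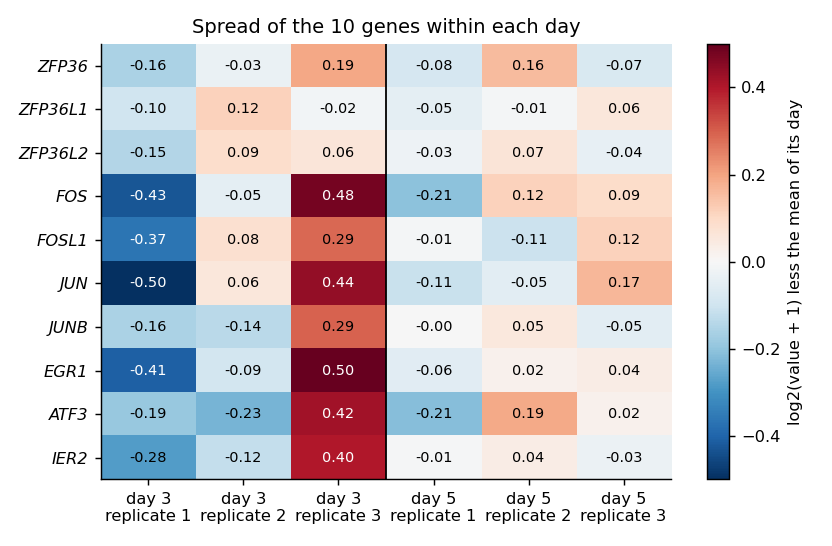
Deviation of each gene's log2(value + 1) from the mean of its day, in each of the 6 libraries (red above, blue below; the printed numbers are log2 units). In day 3 the column of replicate 1 is blue for all 10 genes and that of replicate 3 is red for all but ZFP36L1, at up to 0.50 for EGR1, while the day 5 columns stay within 0.21.

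As background for the lists that follow, 29.3% of all genes tested were called higher and 27.6% lower, with a median log2 fold change of 0.01. Over the 13094 tested genes with an annotated 3′UTR these values were 37.7%, 28.0% and 0.12. Of 36 further immediate early genes, all tested, 24 were higher on day 5, 2 were lower and 10 were not called, with a median log2 fold change of 0.79. FOSL2 rose the most, followed by KLF4, a zinc finger factor of epithelial differentiation (log2 fold change 2.16 ± 0.12 SE, adjusted p = 0.000167 by limma). The 2 that fell were NFKBIZ, a nuclear regulator of NF-κB (−0.82 ± 0.10), and PLK2, a polo-like kinase (−0.42 ± 0.10). MYC, KLF6, IER3 and TRIB1 were among those that rose, by 1.03, 1.36, 0.84 and 0.95 on the log2 scale. DUSP1, the phosphatase that switches off MAP kinases, was not called, at 0.23 (adjusted p = 0.348 by limma).

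Of 19 kinases and factors that act upstream of these genes, 12 were higher, 2 lower and 5 not called, with a median log2 fold change of 0.42. ELK3 and ELK1, which bind beside SRF at serum response elements, rose by 1.68 ± 0.10 and 0.85 ± 0.12 on the log2 scale (SE, n = 3 per day). SRF itself rose by 0.84. MAPK8 and MAPK9, the JNK kinases that phosphorylate JUN, fell by 0.53 ± 0.08 and 0.43 ± 0.09 on the log2 scale. MAPK3, an ERK kinase, rose by 0.77.

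Of 10 other proteins that bind AU-rich elements, 6 were higher, 2 lower and 2 not called, with a median log2 fold change of 0.42. KHSRP, a decay factor, rose by 1.14 ± 0.15 and HNRNPD (AUF1) by 0.70 ± 0.10, and ELAVL1 (HuR), which stabilizes such mRNAs, rose by 0.60. HNRNPDL and RC3H2 fell by 0.87 ± 0.08 and 0.38 ± 0.07 on the log2 scale. Of 11 subunits of CCR4-NOT, the complex that the ZFP36 proteins recruit, 6 were higher, 4 lower and 1, CNOT8, was not called, with a median log2 fold change of 0.26. CNOT3, a regulatory subunit, rose by 0.95 ± 0.12 and CNOT6L, a catalytic deadenylase, by 0.76 ± 0.10. CNOT7, another catalytic deadenylase, fell by 0.84 ± 0.08 and CNOT10 by 0.55 ± 0.09 on the log2 scale. The count of CCR4-NOT genes called was between 5 and 10 when 1 library was left out. It was 6 without day 3 replicate 2 or day 5 replicate 1 and 5 without day 5 replicate 2, and it was 4 with no filter on low values.

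Of 30 transcripts known to carry AU-rich elements, 24 were tested, and 13 were higher, 3 lower and 8 not called, with a median log2 fold change of 0.70. PLAUR, the urokinase receptor, rose by 2.61 ± 0.08 on the log2 scale (SE, n = 3 per day). NFKBIZ, HIF1A (−0.63 ± 0.09) and the chemokine CXCL8 (−1.06, at mean values of 31.2 and 14.5) were the 3 that fell. VEGFA, LIF and PIM1 rose by 1.65, 1.26 and 1.48. The cytokine transcripts TNF, CSF2, IL6, IL1A and IL1B, classical substrates of ZFP36 in immune cells, were below the filter. Genes sorted only by the nonamer in their 3′UTR differed little. The median log2 fold change was 0.12 for the 11880 with none, 0.10 for the 929 with 1 and 0.06 for the 285 with 2 or more. Of them 37.7%, 38.3% and 34.4% were called higher, and 27.8%, 30.7% and 29.1% lower. The classes also differed in 3′UTR length and were not matched for it. These values are descriptions without a test.

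A list of 22 further bZIP genes held partners of FOS, JUN or ATF3 and other bZIP relatives. Of these, 20 were tested, and 6 were higher, 9 lower and 5 not called, with a median log2 fold change of −0.25. The small MAF genes MAFF and MAFK rose by 1.87 ± 0.13 and 1.45 ± 0.13 on the log2 scale. CREM and JDP2, a repressor of AP-1, fell by 0.77 ± 0.11 and 0.76 ± 0.16 on the log2 scale. ATF2 and ATF4 were among the 9 that fell, by 0.62 and 0.66 on the log2 scale.

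Of 16 genes known as AP-1 targets, 11 were tested, and 9 were higher, 0 lower and 2, MMP7 and VIM, not called, with a median log2 fold change of 1.20. PLAUR and PLAU, of the same urokinase system, rose by 2.61 and 1.19 on the log2 scale. The matrix metalloproteinase genes MMP1, MMP3, MMP9 and MMP13 were below the filter. Several lists share genes, such as MYC, IER3, PLAUR and CCND1 in pairs of lists, so their counts are not independent.

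**Figure D4:**
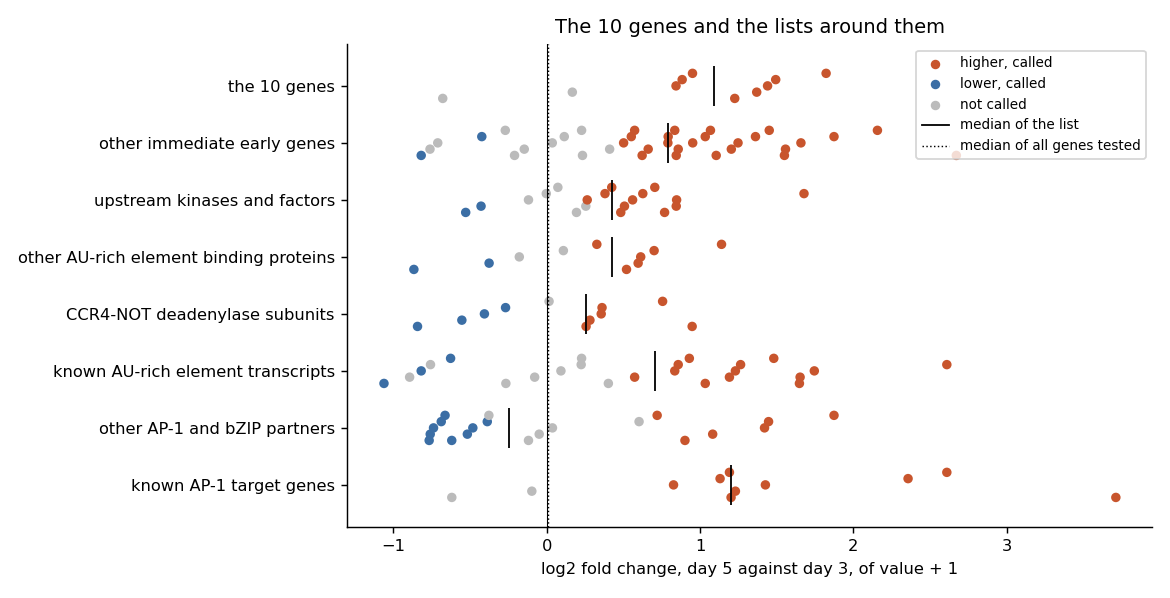
Log2 fold change of each tested gene, day 5 against day 3, for the 10 genes and 7 lists around them (orange called higher, blue called lower, grey not called; bars mark list medians and the dotted line the median of all genes tested, 0.01). The AP-1 targets and the 10 genes have the highest medians, 1.20 and 1.09, and the list of further bZIP genes lies lowest at −0.25.

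Among 14892 tested genes with a mean value of at least 50 on either day, the profiles closest to that of ZFP36 over the 6 libraries were those of PNMA1, NGFR, MLPH, HNF4A and CTSA. The root mean square difference of their centred log2 values from those of ZFP36 ran from 0.028 for PNMA1 to 0.064 for CTSA. The profiles closest to that of FOS were those of MED30, ARG2, RPSAP45, LOC100996842 and SDF2L1, at differences of 0.11 for MED30 to 0.13 for SDF2L1. RPSAP45 is, by its name, a ribosomal protein pseudogene, so its reads are uncertain. By this measure ZFP36 had closer neighbours than FOS.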

How the data were processed

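Whole transcriptome RNA of HCT116 cells was depleted of rRNA, and stranded libraries with molecular identifiers were sequenced in pairs. The authors trimmed the reads and mapped them to annotated genes of hg38 in CLC Genomics Workbench, accepting the gene's strand only. The submitters' processing notes name FastQC 0.11.8 and MultiQC 1.7. The deposited table lists for each gene a normalized signal in each of the libraries. The methods name TMM, while the columns of the table are those that DESeq2 writes, so the scaling used is not certain. Its fold changes and p-values by the authors were not used, nor were the small RNA tables and day 7.

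Divided by the worth of 1 read, 100% of the deposited signal values came out whole (within 0.1 read), so reads were recovered. limma 3.58.1 (R 4.3.3) was fitted to log2(value + 1), with day as the only term, for genes that reached 10 in 3 or more of the 6 libraries. The pseudocount of 1 understates changes of low genes. The p-values measure the spread between these libraries; nothing further is said of separate cultures. Levels per length used GENCODE 44 exons, while the methods name a different annotation, of Ensembl, for the mapping. The exons counted may therefore differ from those used for length. The fit was tested on simulated data. Of 196 tested genes given a 2-fold change, 121 (61.7%) were called, and 10 unchanged genes were called too. Only 200 genes were changed in the simulation, whereas 11450 were called in these data, and the adjustment depends on that number. The 61.7% is therefore not the share of 2-fold changes found in this comparison. A gene that was not called can still differ between the days. edgeR 4.0.16 and DESeq2 1.42.0 on recovered reads, other scalings, no filter, a pseudocount of 0.1, a replicate block, leaving out each library and a 2-fold minimum were alternatives. edgeR called FOS where limma did not, as given with the results.

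The 10 genes and all lists were chosen with earlier results of these data known. Named from each list were the 2 called genes that rose most and the 2 that fell most, given a mean value of at least 50 on either day. Other list genes were named after their values were seen, to account for counts or for their known role. For ZFP36 and FOS the 5 nearest profiles were named. Some genes that this rule selects are not reported here. Tables were handled with Python 3.11.15, pandas 2.3.3 and numpy 2.4.6, and figures drawn with matplotlib 3.10.9.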

Additional observations from a re-analysis of the deposited data

How the results depend on the processing

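ZFP36, ZFP36L1, ZFP36L2, FOSL1, JUNB, EGR1 and IER2 kept their call under all 13 alternatives, with log2 fold changes of 1.15 to 1.32, 1.44 to 1.56, 1.30 to 1.44, 1.64 to 1.97, 1.36 to 1.59, 0.75 to 1.20 and 0.70 to 1.04. ATF3 was called under none (0.05 to 0.38, adjusted p from 0.0661 to 0.865). The log2 fold change of FOS was −0.61 with library totals, −0.64 with TMM scaling, −0.71 by edgeR and −0.73 by DESeq2, all called. With no filter JUN, PLK2 and MAPK9 kept their log2 fold changes of 0.88, −0.42 and −0.43 but were not called. Their SEs were larger (0.26, 0.13 and 0.12 in place of 0.24, 0.10 and 0.09). The adjustment also ran over 38055 genes in place of 20129, and the unadjusted p-values by limma were 0.0180, 0.0190 and 0.0132. In this setting 4 CCR4-NOT genes were called in place of 10. A 2-fold minimum left 5 of the 8 genes called (ZFP36, ZFP36L1, ZFP36L2, FOSL1 and JUNB) and 3589 of 11450 overall. The count of CCR4-NOT genes called ranged from 5 to 10 over the leave-one-out fits. The share of FOS in its family changed by −25.5 percentage points, or −28.8 with canonical transcript lengths (chosen after seeing the data). That of JUN changed by −2.65, or −4.58 with reads not divided by length. The cause of these differences was not tested unless stated.

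Over all genes tested the replicate numbers showed no pairing: deviations from the day means of same-numbered libraries correlated at −0.01, 0.03 and 0.02. In the deposited values of the 10 genes, replicate 1 lay below the mean of its day for every gene on both days. It was the lowest library for 9 on day 3 and for 6 on day 5, against 43.9% and 33.5% of all genes tested. This depends on the scaling. Divided by length and library total, day 5 replicate 1 was above the day 5 mean for JUNB (54.05 against 53.75 RPKM) and IER2 (40.91 against 40.77). The block lowered the SE of FOS from 0.24 to 0.16 and that of JUN from 0.24 to 0.16. With the replicate block, 10533 genes and 9 of the 10 were called, FOS among them (adjusted p = 0.0292 by limma), and 6 CCR4-NOT genes. At 3 libraries per day the 95% interval of ATF3 spanned −0.34 to 0.68.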
